A study of Gallus gallus with 8 samples.

Results

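Messenger RNA of the neural plate, the midline ectoderm that forms the central nervous system, was set against that of the anterior and posterior parts of the preplacodal region, the strip of head ectoderm around it that forms cranial sense organs and ganglia. All 3 tissues were dissected from chick embryos at HH6/7 (Hamburger and Hamilton stages 6 to 7), and the labels name no treatment for them. The comparison uses 3 of the 8 libraries of the series: neural plate, anterior preplacodal region (aPPR) and posterior preplacodal region (pPPR), each 1 library and with no replicate. A gene was taken as different where the neural plate stood at least 2-fold above, or at least 2-fold below, both preplacodal libraries, with 5 CPM or more on the higher side, that is in the neural plate or in each of both preplacodal libraries (CPM is the count of a gene divided by its library's total and scaled to counts per 1e6). Of the 17329 genes in the deposited count table, 10014 reached 5 CPM in any of the 3 libraries, and 603 of them, 6.02%, met this rule.

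Per the labels, the neural plate library came from 1 laboratory, as did libraries from earlier stages, of anterior and central pre-streak epiblast (EGKXII/XIII) and of area opaca epiblast labelled HH4, with and without a grafted node. The aPPR and pPPR libraries came from another laboratory, as did a library of HH6/7 outer head ectoderm without neural or placodal fate, called non-neural ectoderm here. Tissue and laboratory therefore cannot be told apart in any difference between the neural plate and the preplacodal libraries. The labels do not give the number of embryos behind a library. With 1 library a group there is no test between groups, and an interval in brackets is the exact 95% interval of a CPM ratio, which covers counting error only.

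By way of background, the neural plate forms where BMP signals are held low, by secreted antagonists among others, and the ectoderm farthest from it becomes epidermis under high BMP activity. The preplacodal region lies between them and is marked by homeobox factors such as SIX4 with their EYA cofactors, together with DLX, GATA and TFAP2 factors that it shares with the surface ectoderm. The neural plate is known for SoxB1 and ZIC factors and for N-cadherin, which replaces E-cadherin as it folds.

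Library totals were 109869453 counts in the neural plate, against 96256421 in aPPR and 138666339 in pPPR, and where a gene had no count it was set to 3 counts in ratios, which is 0.0273 CPM in the neural plate, 0.0312 CPM in aPPR and 0.0216 CPM in pPPR. The 50 genes with most counts held 14.5% of counts in the neural plate, 16.0% in aPPR and 15.6% in pPPR. Genes encoded by the mitochondrial genome, 7 in the table, held 2.70% of counts in the neural plate, against 4.52% in aPPR and 4.24% in pPPR. That share ran from 2.64% to 3.49% in the other 4 libraries of the neural plate's laboratory and was 4.99% in non-neural ectoderm, and its part in the differences below was not tested.

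The neural plate was higher than both preplacodal libraries in 166 genes, 1.66% of those tested, and lower in 437 genes, 4.36%. At a 4-fold threshold 29 genes (0.29%) were higher and 150 (1.5%) lower. Set against aPPR alone 285 genes (2.86%) were higher and 657 (6.6%) lower, and against pPPR alone 212 (2.14%) were higher and 498 (5.03%) lower. For 135 of the higher and 371 of the lower genes, both counting intervals lay wholly past a ratio of 2. The transcript length implied by the authors' counts and FPKM values (fragments scaled to gene length and library size) had a median of 2348 bases over 162 higher genes, 2433 bases over 401 lower genes and 2281 bases over 9754 genes tested. All 603 genes had counts on their lower side, and 4 of the higher and 9 of the lower genes are listed by RefSeq accession. Where identifiers with near-equal counts in all libraries were counted once, 164 higher and 432 lower genes remained.

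The preplacodal libraries were closer to each other than to the neural plate over these 10014 genes. Spearman's coefficient was 0.947 between the neural plate and aPPR and 0.960 between the neural plate and pPPR, against 0.990 between aPPR and pPPR. With non-neural ectoderm it was 0.853 for the neural plate, 0.929 for aPPR and 0.919 for pPPR. The preplacodal and non-neural libraries share a laboratory, and the libraries differ in depth.

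The ratios of the called genes ran on without a gap to those of genes just outside the rule. DOCK5 and RTN4R were just inside on the higher side, with nearest ratios of 2.01 for both, and LRRC8C and NTM were just outside with 1.99. Of the lower genes AMY1A (34.4 CPM in neural plate against 89.4 and 68.8 CPM in aPPR and pPPR) and RAB37 were just inside. ABLIM1 (4.61 CPM in neural plate against 20.1 and 9.21 CPM in aPPR and pPPR) and POPDC3 were just outside.

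Markers of the labelled tissues were read first. SOX2, the general factor of the neural plate, stood at 59.98 CPM in the neural plate, against 15.5 CPM in aPPR and 14.9 CPM in pPPR, and at 0.153 CPM in non-neural ectoderm. The 10 neural plate markers found in the table summed to 1055 CPM in the neural plate, against 796 CPM in aPPR and 705 CPM in pPPR. SOX1 and SIX3 of this list had no count in any of the 8 libraries, which leaves 8 markers with counts. SOX2, RAX, MSI1, CDH2 and NCAM1 stood above both preplacodal libraries, LHX5 and OTX2 above pPPR only, and PAX-6 below both. The 9 preplacodal markers summed to 89.0 CPM in the neural plate, against 897 CPM in aPPR and 742 CPM in pPPR. Each of the 9 was lowest in the neural plate of the 3 libraries, and none was at 0 there. In dissected tissue, fewer cells of a type and less RNA per cell cannot be told apart.

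Of the 12 leading genes higher in the neural plate, 5 encode transcriptional regulators. RFX4 (ENSGALG00000012647), a winged helix factor of the developing brain, stood at 13.5 CPM in the neural plate, against 0.0935 CPM in aPPR and 0.728 CPM in pPPR. It was 145-fold higher [75.9, 317] than in aPPR and 18.6-fold higher [15.2, 22.9] than in pPPR. FOXB1, a forkhead factor of the neural tube, stood at 21.1 CPM in the neural plate, against 0.987 CPM in aPPR and 1.19 CPM in pPPR, and NKX-6.2, a homeobox factor of the ventral neural tube, at 27.7 CPM in the neural plate, against 0.426 CPM in aPPR and 1.98 CPM in pPPR. LMO1, a LIM-only cofactor, stood at 156 CPM in the neural plate, against 8.70 CPM in aPPR and 10.9 CPM in pPPR, and was 17.9-fold higher [16.7, 19.2] than in aPPR and 14.3-fold higher [13.5, 15.0] than in pPPR. All 4 were under 2 CPM in non-neural ectoderm. ZEB2, a zinc finger repressor, differed between both parts of the preplacodal region, at 93.7 CPM in the neural plate, against 2.61 CPM in aPPR and 15.3 CPM in pPPR.

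Outside transcription, the leading genes included PTPRT, a receptor tyrosine phosphatase (40.3 CPM in neural plate against 6.34 and 5.40 CPM in aPPR and pPPR), and FMN2, a formin that nucleates actin (24.1 CPM in neural plate against 2.31 and 4.20 CPM in aPPR and pPPR). SDC3, a cell surface heparan sulphate proteoglycan, stood at 79.3 CPM in the neural plate, against 17.03 CPM in aPPR and 15.4 CPM in pPPR. LAMP5, a membrane protein of the lysosome family known from brain, stood at 17.1 CPM in the neural plate, against 1.57 CPM in aPPR and 1.82 CPM in pPPR. PIK3R5, a regulatory subunit of phosphoinositide 3-kinase, stood at 39.2 CPM in the neural plate, against 6.49 CPM in aPPR and 8.16 CPM in pPPR, and PROCA1 at 48.8 CPM in the neural plate, against 8.18 CPM in aPPR and 9.76 CPM in pPPR. In these 6 genes both preplacodal libraries lay under the neural plate and within 2-fold of each other.

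COL1A2 (ENSGALG00000009641), a chain of type I collagen and best known from mesenchyme, stood at 513 CPM in the neural plate, against 22.2 CPM in aPPR and 68.9 CPM in pPPR. It was 23.1-fold higher [22.1, 24.1] than in aPPR and 7.45-fold higher [7.29, 7.61] than in pPPR. It stood at 52.4 CPM in non-neural ectoderm, 53.9 CPM in grafted and 1.44 CPM in ungrafted area opaca, and 24.8 CPM in anterior and 1.89 CPM in central pre-streak epiblast. The neural plate thus lay above all 7 other libraries, and pPPR lay above aPPR.

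**Figure D1:**
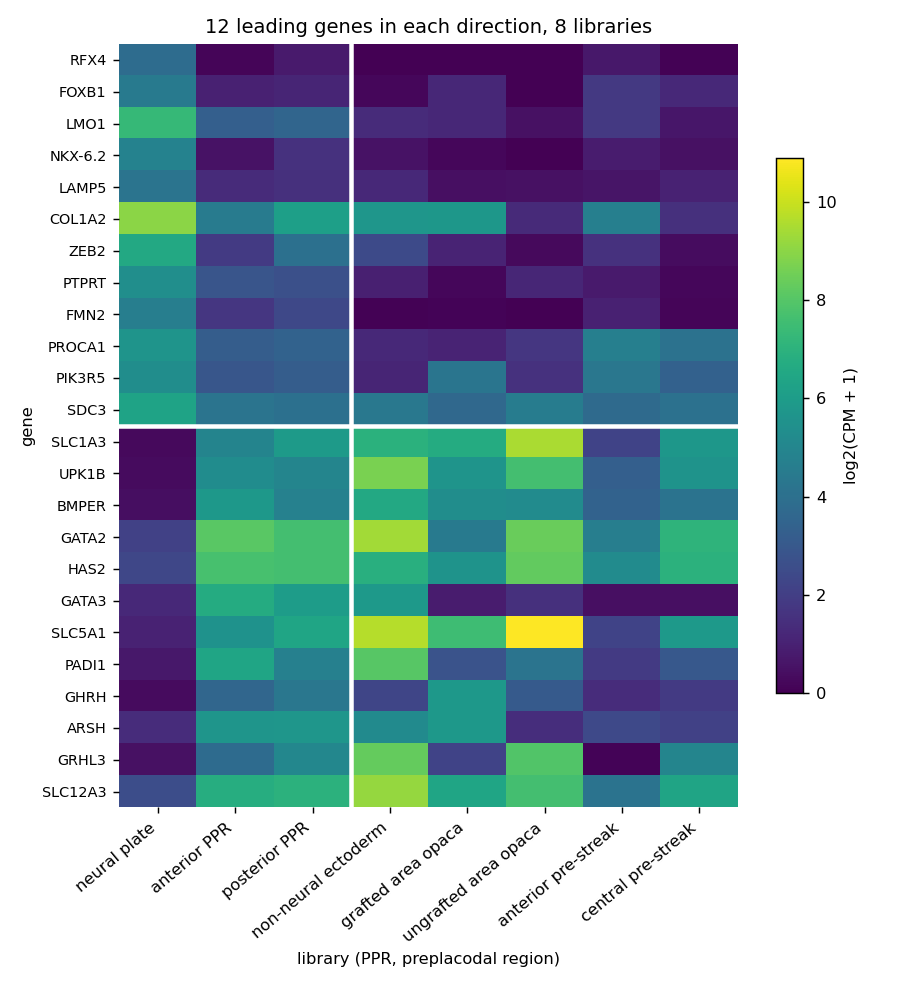
Colour gives log2(CPM + 1) of the 12 leading genes higher (above the white line) and the 12 leading genes lower (below it) in the neural plate, in all 8 libraries. The vertical line parts the 3 libraries that chose the genes from the 5 that did not. RFX4, NKX-6.2 and FMN2 are near 0 in most other libraries, while SLC5A1 and GATA2 are highest in ungrafted area opaca or non-neural ectoderm.

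Neural plate transcription factors and markers had 32 measured members (1 CPM or more in any of the 3 libraries), of which 9 were higher, 0 lower and 23 neither. Their median log2 ratio to the geometric mean of aPPR and pPPR was 0.92, beside -0.02 over all 11954 measured genes, of which 1.39% were higher and 3.66% lower. Besides SOX2 and NKX-6.2, the higher members included ZIC1, ZIC2, FEZF2, RAX, GLI3 and CDH2. The zinc finger factor ZIC1 stood at 23.9 CPM in the neural plate, against 3.88 CPM in aPPR and 5.50 CPM in pPPR, with no count in non-neural ectoderm. ZIC2 stood at 124 CPM in the neural plate, against 22.6 CPM in aPPR and 54.3 CPM in pPPR. Both had more in pPPR than in aPPR. FEZF2 and RAX, regulators of the forebrain and eye field, ran the other way, with FEZF2 at 42.1 CPM in the neural plate, against 13.4 CPM in aPPR and 2.05 CPM in pPPR and RAX at 8.01 CPM in the neural plate, against 0.904 CPM in aPPR and 0.123 CPM in pPPR. A separate entry under the symbol RAX1 was called too, at 8.81 CPM in the neural plate, against 1.04 CPM in aPPR and 0.151 CPM in pPPR, and whether both entries share reads was not tested. Against aPPR alone 2 members of the list were lower. This and all later lists were chosen with earlier results of these data known, so their shares and medians are a description only.

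Several neural genes did not differ by the rule. OTX2, a homeobox factor of the forebrain and midbrain, stood at 281 CPM in the neural plate, against 283 CPM in aPPR and 222 CPM in pPPR. LHX5, a LIM homeobox factor of the forebrain, stood at 194 CPM in the neural plate, against 196 CPM in aPPR and 161 CPM in pPPR, and the SoxB1 factor SOX3 at 131 CPM in the neural plate, against 99.3 CPM in aPPR and 97.1 CPM in pPPR. The neural RNA-binding protein MSI1 stood at 150.1 CPM in the neural plate, against 52.5 CPM in aPPR and 87.2 CPM in pPPR, above both and under 2-fold against pPPR. The eye, lens and forebrain factor PAX-6 was below aPPR, at 6.45 CPM in the neural plate, against 37.9 CPM in aPPR and 10.3 CPM in pPPR. The preplacodal libraries thus shared OTX2, LHX5 and SOX3 with the neural plate at levels under 2-fold apart, and differed from it in SOX2 and ZIC1.

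The BMP antagonists CHRD, FST and NBL1 were higher in the neural plate. CHRD, which binds BMPs outside the cell, stood at 19.4 CPM in the neural plate, against 6.22 CPM in aPPR and 5.83 CPM in pPPR. FST, which binds activins and BMPs, stood at 129 CPM in the neural plate, against 14.1 CPM in aPPR and 48.9 CPM in pPPR, and NBL1, an antagonist of the DAN family, at 42.0 CPM in the neural plate, against 11.8 CPM in aPPR and 9.397 CPM in pPPR. The ratio of FST was 9.16-fold and 2.64-fold and that of NBL1 3.56-fold and 4.47-fold against aPPR and pPPR. The ligands BMP4 and BMP7 ran the other way. BMP4 stood at 22.3 CPM in the neural plate, against 71.9 CPM in aPPR and 92.1 CPM in pPPR. BMP7 stood at 16.4 CPM in the neural plate, against 65.0 CPM in aPPR and 69.1 CPM in pPPR. BMPER, another extracellular BMP binding protein, was 169-fold lower [122, 242] than in aPPR and 81.6-fold lower [58.9, 117] than in pPPR, at 0.328 CPM in the neural plate, against 55.4 CPM in aPPR and 26.7 CPM in pPPR. Of 22 measured BMP ligands, receptors and antagonists, these 3 were higher, these 3 lower and 16 neither, among them the antagonist TWSG1 (40.8 CPM in neural plate against 45.6 and 45.2 CPM in aPPR and pPPR) and the receptors BMPR1A (33.6 CPM in neural plate against 44.8 and 39.5 CPM in aPPR and pPPR) and BMPR2 (36.7 CPM in neural plate against 35.6 and 41.8 CPM in aPPR and pPPR). The median log2 ratio of the 22 was 0.03, and over all measured genes 1.39% were higher and 3.66% lower.

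Genes known as targets of BMP signalling had the lowest median of the 31 lists, at -3.60 log2 over 16 measured members. Of these 9 (56.3%) were lower, 0 higher and 7 neither, beside 3.66% lower and 1.39% higher of all measured genes. With FPKM and a pseudocount of 1 the median was -1.96. MSX2, a homeobox repressor, stood at 0.510 CPM in the neural plate, against 20.5 CPM in aPPR and 10.8 CPM in pPPR. ID3, an inhibitor of basic helix-loop-helix factors, stood at 20.9 CPM in the neural plate, against 108 CPM in aPPR and 72.1 CPM in pPPR. BAMBI, a pseudoreceptor that dampens BMP signals, stood at 5.12 CPM in the neural plate, against 79.3 CPM in aPPR and 41.1 CPM in pPPR, and the inhibitory SMAD6 at 5.33 CPM in the neural plate, against 21.1 CPM in aPPR and 18.6 CPM in pPPR. The other lower members were SMAD9, DLX3, DLX5, GATA2 and GATA3. MSX1 (43.1 CPM in neural plate against 67.5 and 84.0 CPM in aPPR and pPPR), ID1 (32.8 CPM in neural plate against 64.0 and 49.8 CPM in aPPR and pPPR) and ID2 (231 CPM in neural plate against 311 and 279.6 CPM in aPPR and pPPR) were lower in value and not past 2-fold in both. Lists share members, so DLX, GATA and MSX genes count in several of them. They were chosen with earlier results of these data known, so the order of their medians is a description only.

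Adhesion molecules differed in both directions. CDH2, N-cadherin, stood at 184 CPM in the neural plate, against 81.8 CPM in aPPR and 64.6 CPM in pPPR. CDH11 was 4.68-fold higher [4.57, 4.79] than in aPPR and 3.56-fold higher [3.49, 3.62] than in pPPR, at 402 CPM in the neural plate, against 86.0 CPM in aPPR and 113 CPM in pPPR. CDH6 stood at 12.4 CPM in the neural plate, against 2.10 CPM in aPPR and 6.05 CPM in pPPR, CDH22 at 19.6 CPM in the neural plate, against 4.75 CPM in aPPR and 6.94 CPM in pPPR and the protocadherin PCDH8 at 31.1 CPM in the neural plate, against 4.33 CPM in aPPR and 12.1 CPM in pPPR. These 5 of 24 measured cadherins (20.8%) were higher, while over all measured genes 1.39% were higher and 3.66% lower. CDH8 (1.24 CPM in neural plate against 7.43 and 8.34 CPM in aPPR and pPPR) and CDH13 (15.1 CPM in neural plate against 48.3 and 45.9 CPM in aPPR and pPPR) were lower, and the median of the 24 was -0.19. CDH1, E-cadherin, stood at 79.7 CPM in the neural plate, against 158 CPM in aPPR and 244 CPM in pPPR, and was not called because aPPR was under 2-fold above the neural plate. EPCAM, an epithelial adhesion molecule, was near even, at 721 CPM in the neural plate, against 819 CPM in aPPR and 813 CPM in pPPR.

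Some genes of axon guidance and neurites were higher in the neural plate. RGMA, a repulsive guidance molecule that also acts as a BMP co-receptor and was named here after its values were seen, was 4.50-fold higher [4.41, 4.60] than in aPPR and 4.29-fold higher [4.21, 4.37] than in pPPR, at 451 CPM in the neural plate, against 100.1 CPM in aPPR and 105 CPM in pPPR. CNTN2, an axonal adhesion molecule of the immunoglobulin family, stood at 459 CPM in the neural plate, against 140.1 CPM in aPPR and 202 CPM in pPPR. NRP2, a semaphorin receptor, stood at 97.9 CPM in the neural plate, against 15.3 CPM in aPPR and 30.0 CPM in pPPR, NTN3, a netrin, at 26.7 CPM in the neural plate, against 5.59 CPM in aPPR and 11.1 CPM in pPPR, and the repulsive guidance factor DRAXIN at 131 CPM in the neural plate, against 27.6 CPM in aPPR and 59.6 CPM in pPPR. The neurofilament NEFM stood at 19.9 CPM in the neural plate, against 5.24 CPM in aPPR and 5.91 CPM in pPPR. Yet CNTN2 and NEFM were the 2 called members (8.33%) of 24 measured neuronal genes, whose median was 0.48. Over all measured genes 1.39% were higher and 3.66% lower. TUBB3 (174 CPM in neural plate against 88.2 and 97.8 CPM in aPPR and pPPR), DCX (12.7 CPM in neural plate against 9.10 and 8.57 CPM in aPPR and pPPR) and MAP2 (145 CPM in neural plate against 139.7 and 143 CPM in aPPR and pPPR) were not called.

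Of 52 measured genes on the guidance list, 2 (3.85%) were higher and 4 (7.69%) lower, so the list does not hold all guidance genes named above. Over all measured genes these shares were 1.39% and 3.66%, and the median of the list was -0.15. Against aPPR alone 6 list members were higher and 9 lower. UNC5B, a netrin receptor, stood at 95.7 CPM in the neural plate, against 343 CPM in aPPR and 243 CPM in pPPR. PLXNA2, a semaphorin receptor, stood at 27.2 CPM in the neural plate, against 109 CPM in aPPR and 115 CPM in pPPR, EFNA5, an ephrin, at 6.51 CPM in the neural plate, against 20.5 CPM in aPPR and 19.0 CPM in pPPR, and SEMA4G at 18.8 CPM in the neural plate, against 46.0 CPM in aPPR and 40.8 CPM in pPPR. The ligand NTN3 was thus higher in the neural plate while the receptor UNC5B was lower there.

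Of the preplacodal list, 13 of 31 measured members (41.9%) were lower in the neural plate, 0 higher and 18 neither. Over all measured genes 3.66% were lower and 1.39% higher. The median of the list was -1.42, while it was -0.87 against aPPR and -1.35 against pPPR. With FPKM it was -0.83 at a pseudocount of 0.1 and -0.78 at a pseudocount of 1. The transcriptional cofactor EYA2 (ENSGALG00000004508) stood at 4.10 CPM in the neural plate, against 78.4 CPM in aPPR and 78.4 CPM in pPPR, and was 19.1-fold lower [17.4, 21.1] than in aPPR and 19.1-fold lower [17.4, 21.0] than in pPPR. EYA1 stood at 1.77 CPM in the neural plate, against 31.5 CPM in aPPR and 8.72 CPM in pPPR. In non-neural ectoderm EYA2, at 13.6 CPM, lay below both preplacodal libraries, while EYA1, at 12.8 CPM, lay below aPPR and above pPPR. SIX4 (20.5 CPM in neural plate against 37.5 and 35.9 CPM in aPPR and pPPR) and EYA3 (114 CPM in neural plate against 107 and 108 CPM in aPPR and pPPR) were not called.

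The DLX homeobox genes separated the tissues further. DLX5 stood at 13.6 CPM in the neural plate, against 233 CPM in aPPR and 141 CPM in pPPR, and DLX6 at 2.52 CPM in the neural plate, against 60.6 CPM in aPPR and 52.3 CPM in pPPR. DLX6 was at 4.43 CPM in non-neural ectoderm, where DLX5 was at 99.1 CPM and DLX3 at 47.7 CPM. DLX3 stood at 1.502 CPM in the neural plate, against 40.5 CPM in aPPR and 17.3 CPM in pPPR. All 3 were thus lowest in the neural plate, and in non-neural ectoderm DLX6 and DLX5 lay below both preplacodal libraries and DLX3 above both.

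GATA and TFAP2 factors, shared by preplacodal and surface ectoderm, had large ratios. GATA2 (ENSGALG00000005909) stood at 3.26 CPM in the neural plate, against 272 CPM in aPPR and 196 CPM in pPPR, and GATA3 (ENSGALG00000006726) at 1.38 CPM in the neural plate, against 104 CPM in aPPR and 63.7 CPM in pPPR. GATA2 was 83.3-fold lower [75.1, 92.8] than in aPPR and 60.1-fold lower [54.2, 66.9] than in pPPR, and was highest of the HH6/7 libraries in non-neural ectoderm, at 660.0 CPM. TFAP2A stood at 39.5 CPM in the neural plate, against 277 CPM in aPPR and 323 CPM in pPPR, and TFAP2C at 14.8 CPM in the neural plate, against 203 CPM in aPPR and 176 CPM in pPPR. IRX1, a homeobox factor of the Iroquois family, stood at 6.83 CPM in the neural plate, against 42.0 CPM in aPPR and 36.9 CPM in pPPR, and BLIMP-1, the chick PRDM1 repressor, at 40.7 CPM in the neural plate, against 176 CPM in aPPR and 176 CPM in pPPR.

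**Figure D2:**
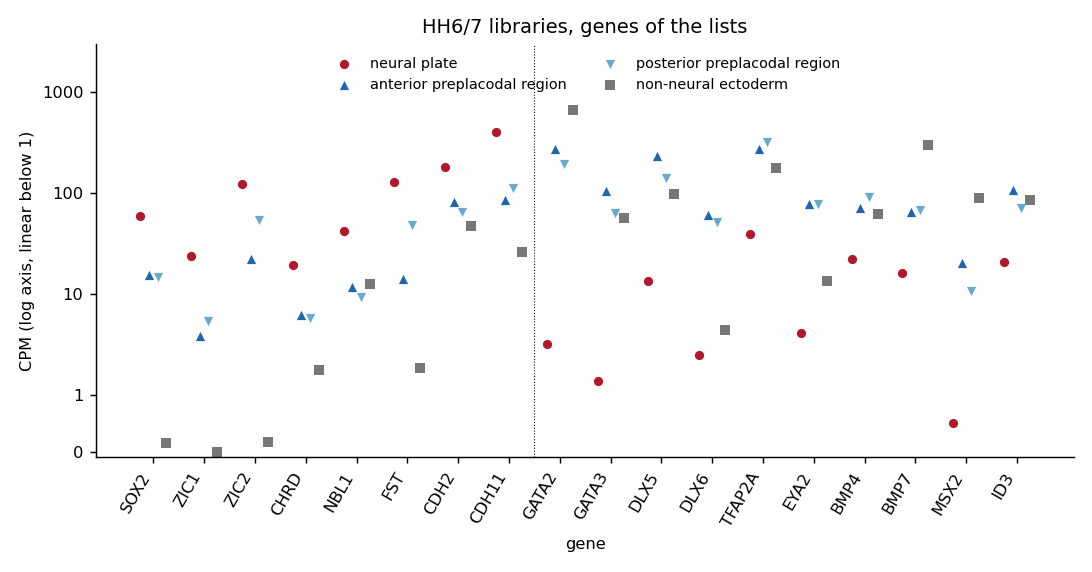
CPM of 18 genes in the 4 HH6/7 libraries, 1 point a library, on a log axis that is linear below 1. Left of the dotted line the neural plate (red) stands above aPPR and pPPR (blue triangles), and right of it below them. Non-neural ectoderm (grey) is near 0 for SOX2, ZIC1 and ZIC2, above both preplacodal libraries for GATA2, BMP7 and MSX2, and below both for DLX6 and EYA2.

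Surface ectoderm genes formed the largest group of lower genes among the lists, with 26 of 47 measured members (55.3%) lower, 0 higher and 21 neither. Over all measured genes 3.66% were lower and 1.39% higher. The median of the list was -2.24, and -1.70 with FPKM and a pseudocount of 1. GRHL3, a grainyhead factor of the epidermis, stood at 0.400 CPM in the neural plate, against 12.8 CPM in aPPR and 32.2 CPM in pPPR, and UPK1B, a uroplakin, at 0.264 CPM in the neural plate, against 38.6 CPM in aPPR and 30.4 CPM in pPPR. GRHL3 reached 318 CPM and UPK1B 416 CPM in non-neural ectoderm, so that both preplacodal libraries lay between the neural plate and the outer ectoderm. The keratins KRT8 (162 CPM in neural plate against 429.9 and 392 CPM in aPPR and pPPR) and KRT19 (220.3 CPM in neural plate against 497 and 479.8 CPM in aPPR and pPPR) had the smaller ratios, KRT14 (1.06 CPM in neural plate against 23.8 and 9.28 CPM in aPPR and pPPR) and KRT18 (5.45 CPM in neural plate against 62.4 and 48.4 CPM in aPPR and pPPR) the larger ones. Junction genes were lower as well, the desmosomal plakophilin PKP1 at 1.11 CPM in the neural plate, against 12.8 CPM in aPPR and 15.8 CPM in pPPR and the claudin CLDN4 at 0.428 CPM in the neural plate, against 7.501 CPM in aPPR and 6.04 CPM in pPPR. So were the regulators GRHL2 (11.4 CPM in neural plate against 75.8 and 63.8 CPM in aPPR and pPPR), OVOL2 (1.96 CPM in neural plate against 8.99 and 9.56 CPM in aPPR and pPPR), KLF5 (36.0 CPM in neural plate against 198 and 129 CPM in aPPR and pPPR) and ESRP1 (29.4 CPM in neural plate against 63.8 and 59.4 CPM in aPPR and pPPR). TP63, the master factor of stratified epidermis, was low and even, at 5.08 CPM in the neural plate, against 4.49 CPM in aPPR and 4.93 CPM in pPPR.

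Several extracellular matrix genes were lower in the neural plate. FN1, fibronectin, stood at 1125 CPM in the neural plate, against 6375 CPM in aPPR and 4713 CPM in pPPR, 5.67-fold and 4.19-fold lower than in aPPR and pPPR. HAS2 (ENSGALG00000016394), which makes hyaluronan, stood at 3.98 CPM in the neural plate, against 212 CPM in aPPR and 195 CPM in pPPR, and was 53.3-fold lower [48.5, 58.8] than in aPPR and 49.1-fold lower [44.7, 54.1] than in pPPR. HAPLN1, a link protein that fixes hyaluronan to proteoglycans, stood at 36.4 CPM in the neural plate, against 223 CPM in aPPR and 277 CPM in pPPR. Fibrillin FBN2 stood at 16.3 CPM in the neural plate, against 144 CPM in aPPR and 148 CPM in pPPR. The lower list members included COL9A1, COL14A1, COL6A3, COL12A1 and the integrin chain ITGB3, and the list does not hold all matrix genes named here. Of 57 measured genes on it 8 (14.0%) were lower, beside 3.66% of all measured genes. In the same list 1 was higher (COL1A2) and 48 were neither, with a median of -0.24. Against aPPR alone 13 were lower.

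Of the 12 leading lower genes, 3 encode membrane transporters. SLC1A3 (ENSGALG00000003582), a glutamate transporter, stood at 0.228 CPM in the neural plate, against 29.2 CPM in aPPR and 59.3 CPM in pPPR, and was 128-fold lower [86.8, 199] than in aPPR and 261-fold lower [176, 403] than in pPPR, over 25 counts in the neural plate. SLC5A1, a sodium-glucose cotransporter, stood at 1.04 CPM in the neural plate, against 45.3 CPM in aPPR and 83.1 CPM in pPPR, and SLC12A3, a sodium chloride cotransporter, at 4.89 CPM in the neural plate, against 109.7 CPM in aPPR and 129 CPM in pPPR. In non-neural ectoderm SLC5A1 reached 826 CPM and SLC12A3 569 CPM. The other leading lower genes were PADI1, which converts arginine residues to citrulline (0.619 CPM in neural plate against 83.0 and 26.1 CPM in aPPR and pPPR), the sulphatase ARSH (1.63 CPM in neural plate against 49.5 and 51.9 CPM in aPPR and pPPR) and the growth hormone releasing hormone gene GHRH (0.255 CPM in neural plate against 11.1 and 18.8 CPM in aPPR and pPPR). GHRH was lower in non-neural ectoderm, at 3.90 CPM, than in either preplacodal library, and PADI1 was higher there, at 265 CPM.

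The Notch ligands DLL1 and JAG2 were lower in the neural plate, and JAG1 was not called (9.37 CPM in neural plate against 15.4 and 18.1 CPM in aPPR and pPPR). DLL1 stood at 2.84 CPM in the neural plate, against 31.2 CPM in aPPR and 25.5 CPM in pPPR, and JAG2 at 8.39 CPM in the neural plate, against 39.3 CPM in aPPR and 47.5 CPM in pPPR. The receptor NOTCH1 stood at 213 CPM in the neural plate, against 106 CPM in aPPR and 138 CPM in pPPR, not past 2-fold against pPPR, and NRARP, a Notch target that feeds back on the pathway, was higher, at 9.20 CPM in the neural plate, against 2.71 CPM in aPPR and 3.34 CPM in pPPR. These were the 3 called genes of 18 measured (median 0.11), beside 1.39% higher and 3.66% lower of all measured genes. Against aPPR alone 4 members were higher.

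Retinoic acid genes had 2 lower members of 16 measured and 0 higher, beside 3.66% and 1.39% of all measured genes, with a median of 0.16. The lower ones were the receptor RARB (6.33 CPM in neural plate against 34.3 and 32.9 CPM in aPPR and pPPR) and the reductase DHRS3 (7.65 CPM in neural plate against 19.4 and 56.6 CPM in aPPR and pPPR). The degrading enzymes CYP26A1 (287 CPM in neural plate against 234 and 245 CPM in aPPR and pPPR) and CYP26C1 (258 CPM in neural plate against 169.7 and 179.6 CPM in aPPR and pPPR) were not called.

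Counts of FGF and WNT genes depended on which preplacodal library was set against the neural plate. Feedback inhibitors and targets of FGF signalling had 15 measured members, none called, beside 1.39% higher and 3.66% lower of all measured genes, and a median of 0.09. Against aPPR alone 2 were higher and 1 lower, and against pPPR alone 1 was lower. ETV5 stood at 138 CPM in the neural plate, against 103 CPM in aPPR and 129 CPM in pPPR, SPRY1 at 33.4 CPM in the neural plate, against 29.7 CPM in aPPR and 33.4 CPM in pPPR, and MKP3, a phosphatase of ERK, at 36.5 CPM in the neural plate, against 11.3 CPM in aPPR and 24.4 CPM in pPPR. The receptor FGFR4 was lower (57.5 CPM in neural plate against 167 and 118 CPM in aPPR and pPPR), a call lost with DESeq2 size factors and with FPKM, while FGFR1, FGFR2 and FGFR3 were not called. None of 25 measured WNT ligands and receptors was called (median -0.10), but 2 were higher against aPPR alone, and 1 higher and 2 lower against pPPR alone. FRZB, a secreted WNT inhibitor, was higher (679 CPM in neural plate against 218 and 335 CPM in aPPR and pPPR), and RNF43, a negative regulator of WNT receptors, lower (3.50 CPM in neural plate against 9.39 and 8.48 CPM in aPPR and pPPR), of 23 measured targets and inhibitors. The median of that list was 0.30, and against aPPR alone 7 of its members were higher. With FPKM, 0 of its members were lower at a pseudocount of 1, and 1 at a pseudocount of 0.1. The hedgehog list had 1 higher member of 11, GLI3 (87.0 CPM in neural plate against 42.2 and 42.0 CPM in aPPR and pPPR), and a median of 0.43. With FPKM it had 0 higher members at a pseudocount of 1, and 1 at a pseudocount of 0.1. Of 8 measured HOX and caudal genes none was called, while 2 were higher against aPPR alone and 2 lower against pPPR alone.

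Cell cycle genes had 1 lower member of 28 measured (CDK6; median 0.19), glycolysis and hypoxia genes 1 of 31 (EGLN3; median 0.06), stress genes 1 of 19 (ATF3; median 0.05) and housekeeping genes 0 of 19 (median 0.17). With 3.57% of cell cycle and 3.23% of glycolysis and hypoxia genes lower, these shares were near the 3.66% of all measured genes. The 7 mitochondrial genes had 0 called members and a median of -0.73.

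**Figure D3:**
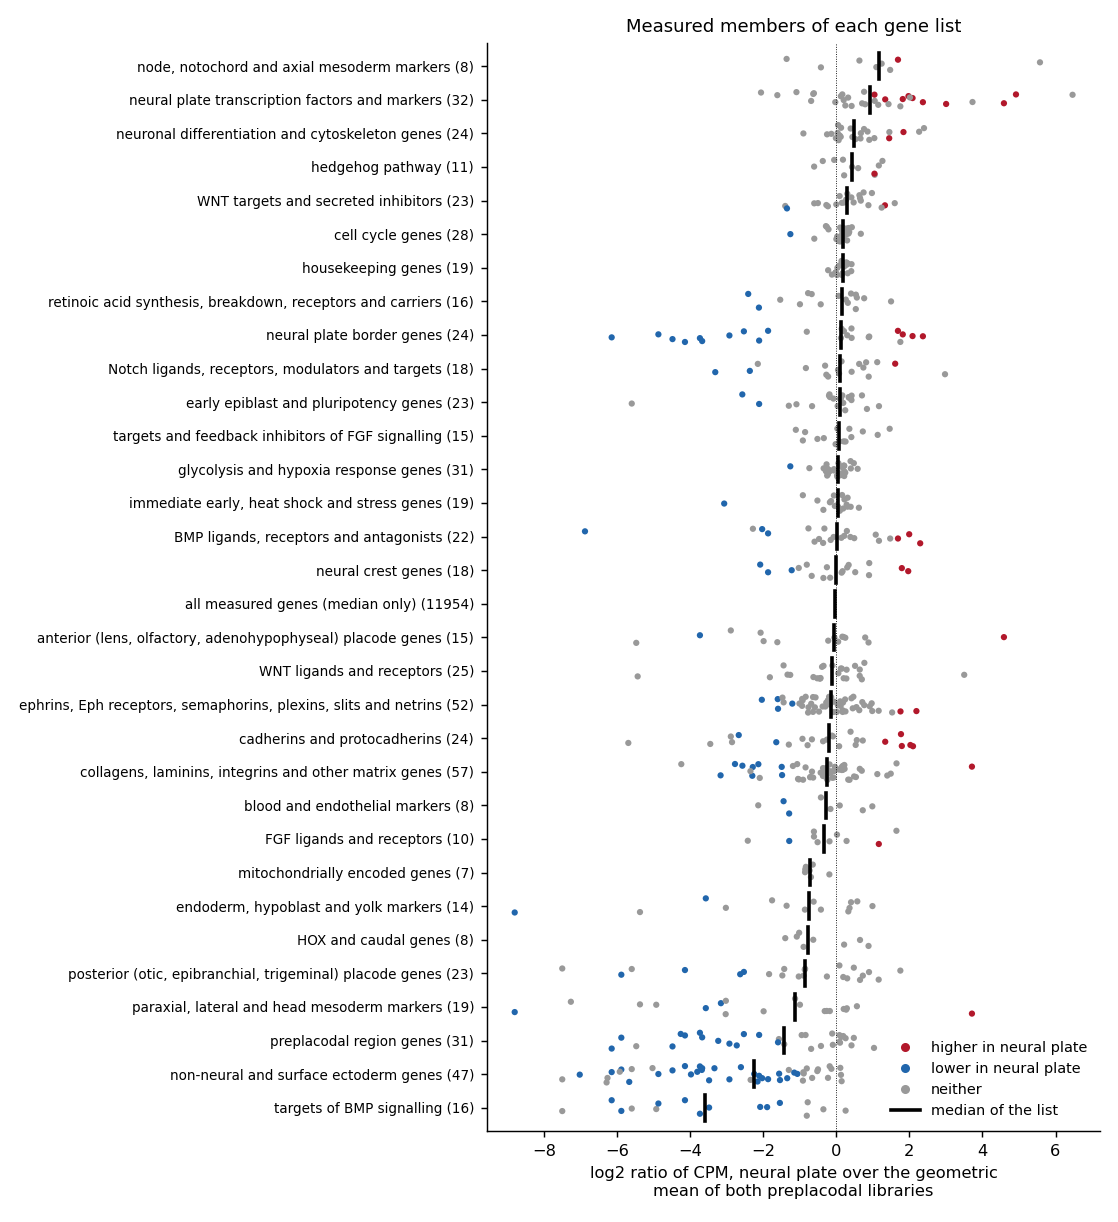
Each point is a measured member of a list, at its log2 ratio of neural plate CPM over the geometric mean of aPPR and pPPR; black bars are list medians, and the number of measured members is in brackets. BMP targets (-3.60), surface ectoderm (-2.24) and preplacodal genes (-1.42) have the lowest medians. Axial mesoderm (1.17) and neural plate genes (0.92) have the highest. Points of a gene low in 1 tissue can stand far out without being called where a library is under 5 CPM.

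Some genes divided aPPR from pPPR, so that the neural plate matched 1 of them. Of the 166 higher genes, 141 differed by under 2-fold between aPPR and pPPR, and of the 437 lower genes 405 did. These counts are given without the share over all genes, and Spearman's coefficient of aPPR and pPPR was 0.990 over all 10014 tested. The rule itself takes genes that differ the same way from both, so the counts are a description only. GBX2, a homeobox factor of the hindbrain and posterior border, stood at 14.2 CPM in the neural plate, against 1.13 CPM in aPPR and 15.6 CPM in pPPR. PAX-7, a factor of the neural border and crest, stood at 24.6 CPM in the neural plate, against 4.38 CPM in aPPR and 39.4 CPM in pPPR, and the WNT target SP5 at 54.0 CPM in the neural plate, against 7.27 CPM in aPPR and 43.6 CPM in pPPR. In these 3 the neural plate lay within 2-fold of pPPR and over 2-fold above aPPR. HESX1, a repressor of the anterior forebrain and pituitary, matched aPPR instead, at 64.0 CPM in the neural plate, against 59.6 CPM in aPPR and 22.9 CPM in pPPR. TBX3 (0.146 CPM in neural plate against 15.4 and 3.22 CPM in aPPR and pPPR) and HAND1 (0.191 CPM in neural plate against 14.4 and 2.34 CPM in aPPR and pPPR) were near 0 in the neural plate and missed the call because pPPR was under 5 CPM.

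Markers of other tissues were read beside these differences. The 5 axial mesoderm markers found summed to 30.9 CPM in the neural plate, against 14.2 CPM in aPPR and 13.6 CPM in pPPR. CHRD had the most counts of them in each of the 3 libraries, T stood at 8.61 CPM in the neural plate, against 2.81 CPM in aPPR and 4.72 CPM in pPPR, FOXA2 ran the other way, at 1.28 CPM in the neural plate, against 4.46 CPM in aPPR and 2.43 CPM in pPPR, and SHH was under 0.4 CPM in all 3, at 0.355 CPM in the neural plate, 0.218 CPM in aPPR and 0.209 CPM in pPPR. Of 8 measured genes on the wider axial mesoderm list CHRD alone was called (12.5% higher, beside 1.39% of all measured genes), and the median was 1.17. The part of axial mesoderm in the level of CHRD was not tested. The 7 mesoderm markers summed to 7.19 CPM in the neural plate, against 20.4 CPM in aPPR and 19.6 CPM in pPPR, where FOXC2 and PDGFRA were the main ones, and MSGN1 was at 0 in the neural plate. Beside COL1A2, the mesenchymal factor TWIST1 was at 0.155 CPM in the neural plate, 0.156 CPM in aPPR and 0.274 CPM in pPPR.

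NKX2-5, a factor of heart mesoderm and pharyngeal endoderm, stood at 0.0182 CPM in the neural plate, against 12.5 CPM in aPPR and 5.24 CPM in pPPR, on 2 counts in the neural plate, and GATA5 at 0.637 CPM in the neural plate, against 7.27 CPM in aPPR and 7.87 CPM in pPPR. The 7 endoderm markers summed to 41.7 CPM in the neural plate, against 43.0 CPM in aPPR and 26.2 CPM in pPPR, mostly APOA1, with SOX17 at 0 in all 3 and GATA4 at 0 in the neural plate. The 6 blood and endothelial markers summed to 5.78 CPM in the neural plate, against 6.18 CPM in aPPR and 10.8 CPM in pPPR, with the globin HBAA at 0 in the neural plate and pPPR and on 3 counts in aPPR. The 5 neural crest markers summed to 69.9 CPM in the neural plate, against 54.5 CPM in aPPR and 92.2 CPM in pPPR. The 9 non-neural markers summed to 1206 CPM in the neural plate, against 2083 CPM in aPPR and 2087 CPM in pPPR.

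The 5 libraries outside the comparison gave levels of the same genes. The 166 higher genes had median levels of 22.8 CPM in the neural plate, 6.50 CPM in aPPR, 7.06 CPM in pPPR and 3.16 CPM in non-neural ectoderm. In the neural plate's own laboratory their medians were 5.69 CPM in anterior and 2.20 CPM in central pre-streak epiblast. There 78 of the 166 were under 5 CPM in both, beside 988 of all 10014 genes tested at HH6/7. The 437 lower genes had median levels of 5.65 CPM in the neural plate, 25.8 CPM in aPPR, 22.9 CPM in pPPR and 40.7 CPM in non-neural ectoderm. Their medians were 9.60 CPM in anterior and 12.4 CPM in central pre-streak epiblast. The levels in the neural plate, aPPR and pPPR chose both sets, so that medians set against them are a description only.

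A pair of contrasts within the neural plate's laboratory shares no library with the comparison. The first set area opaca epiblast touching a grafted node for 5 hours against ungrafted epiblast from the contralateral side of grafted embryos. There 7.56% of genes tested were 2-fold higher and 8.57% lower. Of the 166 genes higher in the neural plate, 41 were higher with the graft and 4 lower, 27 were neither and 94 were under 5 CPM on both sides. Of the 437 lower genes 59 were higher, 178 lower, 150 neither and 50 under 5 CPM. Of all 10014 genes tested at HH6/7, 6.43% were higher with the graft and 6.28% lower, and 917 were under 5 CPM on both sides. Not all lower genes went with the ungrafted side: with the graft EYA2 stood at 8.66 CPM, against 1.92 CPM without it, GHRH at 54.6 CPM against 7.55 CPM, and ARSH at 55.6 CPM against 1.65 CPM. GRHL3 was at 3.60 CPM with the graft, against 240.4 CPM without it.

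In anterior against central pre-streak epiblast, 6.09% of genes tested were 2-fold higher and 4.71% lower. Of the 166 higher genes, 47 were higher and 5 lower anteriorly, 36 neither and 78 under 5 CPM. Of the 437 lower genes 33 were higher, 118 lower, 188 neither and 98 under 5 CPM. The set higher in the neural plate thus had larger shares on the grafted and anterior sides than all genes, and the set lower there larger shares on the ungrafted and central sides. The lower set also had a larger share on the grafted side than all genes, at 13.5%, and on the anterior side, at 7.55% against 5.13%.

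**Figure D4:**
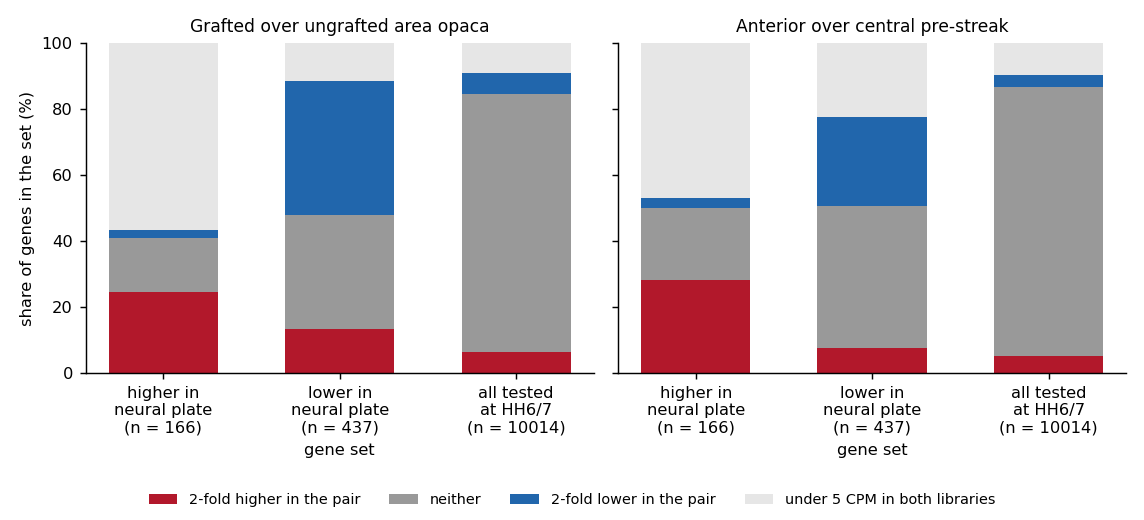
Stacked bars give the share of genes of each set, in percent, that were 2-fold higher, neither, 2-fold lower or under 5 CPM in a pair of libraries that took no part in choosing the sets. All members are counted: 166 genes higher in the neural plate, 437 lower and 10014 tested at HH6/7. In both pairs the red share of the first set and the blue share of the second set exceed those of all genes tested at HH6/7.

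Since the comparison crosses laboratories, the genes were also read in the 5 libraries outside it. Of the lower genes 421, and of the higher genes 97, reached 5 CPM in any of these 5 libraries. In 1 of the 421 and 0 of the 97, the other 4 libraries of the neural plate's laboratory stood all at least 2-fold above non-neural ectoderm. Over all genes it was 25 (0.243%) of 10274, a number that was 59 with TMM factors and with DESeq2 size factors. Non-neural ectoderm stood at least 2-fold above all 4 in 89 of the lower and 10 of the higher genes, 21.1% of 421 and 10.3% of 97 that reached 5 CPM in those libraries, beside 4.98% of the 10274 genes. Without such genes on the lower side, an alternative chosen after seeing the data, 348 lower genes remained. Tissue differs in this split too, so it does not part laboratory from tissue.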

How the data were processed

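Chick tissue was profiled by RNA sequencing in 8 libraries, 1 per group, of which 3 enter the comparison. The values used are raw counts per gene as deposited by the authors; totals of the 3 libraries ran from 96256421 to 138666339, and that limits precision for genes with few counts. The deposited FPKM values, fragments per kilobase scaled to library size by the authors, served as an alternative unit, for Ensembl genes. Build galGal4 and the aligner TopHat2 are named, without versions of the software, per the submitters' processing notes. How genes were counted, and whether by strand, is not given in the sources used here, so reads of a gene and an overlapping or antisense partner may not be parted; 148 pairs of identifiers had like counts (within 5% or 3 counts, at 500 counts or more).

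Counts were scaled to column totals (CPM). The exact Clopper-Pearson interval of a ratio is conditional on the sum of both counts. A count of 0 entered ratios as 3 counts, and levels were not scaled to gene length. With 1 library a group, no p-value was computed. Named genes are the 12 leading ones in each direction, ranked by whichever interval bound was closest to 1 (10 CPM or more on the higher side, no placeholder symbol), members of 31 lists and genes at the 2-fold threshold. The lists hold 862 symbols, of which 739 matched, 15 through RefSeq names and 8 through older names given by hand; 571 genes were measured. A member low in 1 tissue is measured through its level in the other. Members and lists were chosen with earlier results of these data known. Alternatives used TMM factors (edgeR 4.0.16), size factors (DESeq2 1.42.0, in R 4.3.3), other minimums, a ratio of 4, FPKM with pseudocounts of 1 and 0.1, and each preplacodal library alone. The software was numpy 2.4.6, scipy 1.17.1, pandas 2.3.3 and matplotlib 3.10.9 under Python 3.11.15. Promoter sequence was not analysed here, and some list members are counted but not reported by name.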

Additional observations from a re-analysis of the deposited data

Results flagged for a closer look

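SST, the somatostatin gene, lay in the neural plate between the preplacodal libraries, more than 2-fold from each and in opposite directions. It stood at 14.5 CPM in the neural plate, against 36.0 CPM in aPPR and 6.22 CPM in pPPR, a log2 ratio of aPPR over pPPR of 2.53. It was at 7.51 CPM in non-neural ectoderm and at 1.75 CPM in anterior and 0.379 CPM in central pre-streak epiblast. Of the 10014 genes tested it was the only 1 to stand 2-fold above one preplacodal library and 2-fold below the other. With 1 library a group the difference between both contrasts was not tested.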

How the results depend on the processing

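No paired analysis was possible because each group has 1 library. Other scalings kept the counts within 1.5 times: TMM factors gave 176 higher and 398 lower genes, DESeq2 size factors 180 and 373, and totals without the 50 genes with most counts 168 and 473. A minimum of 1 CPM gave 272 higher and 726 lower genes, one of 20 CPM 90 and 225, one of 3 counts 546 and 1352, and a ratio of 4 gave 29 and 150. Without pPPR 285 genes were higher and 657 lower, and 55 list members were higher in place of 26; without aPPR the counts were 212 and 498. FPKM with a pseudocount of 1 gave 283 lower genes. Of the 272 genes higher at a minimum of 1 CPM, 81 were higher with the graft and 16 lower. In the anterior pre-streak epiblast 99 of them were higher and 11 lower. For the 726 lower genes at that minimum these were 109 and 305 on the grafted side and 64 and 211 anteriorly. Over all genes tested at that minimum, 1149 were higher with the graft and 1287 lower, against 713 and 809 at 5 CPM. Anteriorly these were 988 and 683, against 567 and 439. The number of genes tested at 1 CPM is not given here, so these counts are a description without shares. In the split by laboratory, TMM factors left 6 higher genes with non-neural ectoderm above, and DESeq2 size factors, as well as totals without the 50 genes, gave 1 higher gene with it below. The cause was not tested. The 24 leading genes were run under the 3 scalings, which shift all genes by at most 0.07 on the log2 scale, and under both FPKM pseudocounts, and none changed direction in these. The limits are 1 library a group, a laboratory that goes with the tissue, and counting precision, which is low where the lower side has few counts (2 for NKX2-5). The promoter motifs planned as a description were not run.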

Other observations

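Genes of the neural plate border split between the tissues: of 24 measured members, 4 were higher in the neural plate (among them ZIC1, ZIC2 and DRAXIN) and 10 lower, among them TFAP2A, MSX2, DLX5, IRX1 and BLIMP-1. Their median log2 ratio was 0.14, and -0.82 against pPPR alone, and against aPPR alone 8 were higher. Neural crest genes had 18 measured members, 2 higher (CDH6 and the repressor SNAI1, 6.43 CPM in neural plate against 1.69 and 1.59 CPM in aPPR and pPPR), 3 lower (ID3, BMP4 and ETS1) and a median of -0.01, which was 0.28 against aPPR alone, where 5 were higher, and -0.40 against pPPR alone. SNAI2 (12.7 CPM in neural plate against 9.16 and 13.9 CPM in aPPR and pPPR) and SOX9 (20.2 CPM in neural plate against 8.43 and 14.0 CPM in aPPR and pPPR) were not called. Of all measured genes 1.39% were higher and 3.66% lower.

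Posterior placode genes had 23 measured members, 0 higher, 4 lower (GATA3, DLX3, IRX1 and LMX1A) and a median of -0.86. Of all measured genes 1.39% were higher and 3.66% lower. Over the 23 members the median was -0.31 against aPPR and -1.23 against pPPR. Against aPPR alone 6 members were higher and 5 lower, and against pPPR alone 8 were lower. LMX1A, a LIM homeobox factor of the otic placode, stood at 1.47 CPM in the neural plate, against 11.7 CPM in aPPR and 7.05 CPM in pPPR. FOXI2, a forkhead factor, and the chemokine CXCL14 had most in pPPR, FOXI2 at 42.2 CPM in the neural plate, against 68.9 CPM in aPPR and 199.5 CPM in pPPR and CXCL14 at 1.43 CPM in the neural plate, against 0.852 CPM in aPPR and 17.2 CPM in pPPR. Anterior placode genes had 15 measured members, 1 higher (RAX), 1 lower (DLX5) and a median of -0.05. Against aPPR alone 6 were lower and the median was -0.27, and against pPPR alone 3 were higher and it was 0.22. SS5R had most in aPPR, at 0.137 CPM in the neural plate, against 7.55 CPM in aPPR and 4.87 CPM in pPPR. The 8 measured HOX and caudal genes had a median of -0.76, which was 0.27 against aPPR alone, -1.77 against pPPR alone and 0.21 over members at 5 CPM.

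Early epiblast genes had 2 lower members of 23 measured (CLDN3 and BLIMP-1; median 0.10), blood and endothelial genes 2 of 8 (KIT and FLT4; median -0.29) and endoderm genes 2 of 14 (NKX2-5 and GATA5; median -0.74, 0.02 against pPPR alone and 0.33 over members at 5 CPM). Mesoderm genes had 1 higher (COL1A2) and 3 lower (NKX2-5, GATA5 and FOXC2) of 19 measured, with a median of -1.13. Against aPPR alone 6 mesoderm genes were lower and against pPPR alone 5. With TMM factors, and with DESeq2 size factors, 1 endoderm and 2 mesoderm genes were lower. With FPKM, 0 blood and endothelial genes were lower at a pseudocount of 1, and 2 at a pseudocount of 0.1. Over members at 5 CPM the median was -1.37 for blood and endothelial genes and -1.99 for mesoderm genes. With FPKM and a pseudocount of 1 these medians were -0.16 and -0.59. FGF ligands and receptors had 1 higher (FGF13) and 1 lower (FGFR4) of 10, with a median of -0.35. Of all measured genes 1.39% were higher and 3.66% lower. With 8 to 23 measured members a list, 1 more or fewer call moves these shares much, so the counts are a description only.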
